A study of Mus musculus with 18 samples.

Results

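The lysosome is the acidic organelle in which cells break down proteins, sugars and lipids taken up from outside or delivered by autophagy. Its acidity comes from the vacuolar H+-ATPase (V-ATPase), a rotary proton pump with a membrane sector, V0, through which protons pass, and a cytosolic sector, V1, which burns ATP. Soluble hydrolases work inside it, and heavily glycosylated membrane proteins such as LAMP1 and LAMP2 line its wall. In dendritic cells the same proteases cut antigens for presentation, and the transcription factors TFEB and TFE3 are known activators of lysosomal genes through the promoter sequence CACGTG.

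Described here are 52 of the 16614 genes in the deposited expression table. They comprise the 21 genes whose symbol begins with Atp6v0 or Atp6v1, called V-ATPase genes here, and 31 lysosomal genes taken by name. The 31 are 21 hydrolases and their activators, 8 membrane proteins and the factors Tfeb and Tfe3. The rule used gene names only and no measured value, but the genes were chosen with earlier results of these data known. Of these, 16 V-ATPase genes and all 31 lysosomal genes were among the 11989 genes with enough reads to test. The 5 V-ATPase genes left out were Atp6v0e2, Atp6v1c2, Atp6v1e2, Atp6v1fnb and Atp6v1g3, each with 0 to 3 estimated counts in any library. Atp6v1fnb is named as a neighbour of Atp6v1f and is not itself a subunit of the pump.

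The cells were mouse bone marrow-derived dendritic cells (BMDC). Marrow was grown for 7 to 10 days in Flt3L (100 ng/ml) together with GM-CSF (20 ng/ml). They were purified on XCR1, a surface marker of type 1 conventional dendritic cells (cDC1), by sorting or with magnetic beads, and which of these each sample had is not stated. The groups were KO cells with lipopolysaccharide (LPS, n = 5), WT cells with LPS (n = 5), KO control cells (n = 4) and WT control cells (n = 4). LPS is a bacterial cell wall component that activates dendritic cells through Toll-like receptor 4. The sample labels name neither the deleted gene nor the dose and time of LPS, so the deletion was not checked here. They also do not say whether replicates came from separate animals or cultures, so p-values measure the spread between these samples, which may be technical.

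Libraries held 25590104 to 27375189 estimated counts. All 13 cDC1 markers checked had a mean above 1 CPM (counts per 1000000) in every group. Their summed level was 6922 to 8020 CPM in KO LPS, 7369 to 9095 CPM in WT LPS, 8808 to 9914 CPM in KO control and 9296 to 9593 CPM in WT control libraries. Of these 13, 4 were called higher and 7 lower with LPS in KO, and 3 higher and 8 lower in WT (1 and 12 in both under total-count scaling). Xcr1, Clec9a and Id2 were among the higher ones in both genotypes, and Tlr3, Itgae and Flt3 among the lower ones. Xcr1 averaged 281 CPM in KO LPS, against 109 CPM in KO control, and 428 CPM in WT LPS, against 175 CPM in WT control. Of 15 monocyte and macrophage markers, 14 averaged over 1 CPM in each LPS group and 13 in each control group, and none was at 0 throughout a group. Their sum was 935 to 1498 CPM in KO LPS, 957 to 1854 CPM in WT LPS, 1131 to 1341 CPM in KO control and 987 to 1183 CPM in WT control libraries. The single markers moved more than the sum: of 14 tested, 10 were called higher and 4 lower with LPS in KO and 10 higher and 3 lower in WT (6 and 4 in both genotypes under total-count scaling). Fcgr1 averaged 21.4 CPM in KO LPS, against 2.14 CPM in KO control, and 30.9 CPM in WT LPS, against 1.79 CPM in WT control, while Ccr2 averaged 59.5 CPM in KO LPS, against 495 CPM in KO control, and 82.6 CPM in WT LPS, against 446 CPM in WT control. The part of these cells in the LPS responses below was not tested. The highest sums of both LPS groups were those of the replicate 2 libraries, which belong to a run of library numbers that has no control samples here. Several lysosomal genes were also highest in those libraries, and changes that rest on them are given below without them as well. Among controls, KO control 4 had the highest macrophage marker sum (1341 CPM) and the lowest cDC1 marker sum (8808 CPM). Several lysosomal genes were highest of the KO controls there too. LPS fold changes of members in KO without that library are not given here. Of the other lists checked, the 7 plasmacytoid dendritic cell markers summed to 550 to 607 CPM in KO LPS and 482 to 694 CPM in WT LPS, against 96.0 to 104 CPM in KO control and 87.8 to 93.3 CPM in WT control libraries, with Bst2 the highest of them in every group. The osteoclast markers, which include Tcirg1, summed to 261 to 344 CPM in KO LPS and 252 to 338 CPM in WT LPS, against 163 to 173 CPM in KO control and 168 to 179 CPM in WT control libraries. Type 2 dendritic cell markers summed to 136 to 259 CPM with LPS and 207 to 243 CPM in controls, lymphocyte markers to at most 11.5 CPM and mast cell and basophil markers to at most 0.19 CPM. Neutrophil markers summed to 81.7 CPM in WT LPS 5 and 25.8 CPM in WT control 4, and to at most 4.40 CPM in every other library.

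CPM values are scaled by the trimmed mean of M-values (TMM), whose factors averaged 0.769 in KO LPS, 0.814 in WT LPS, 1.321 in KO control and 1.363 in WT control libraries. Scaling by the total count instead lowers the median log2 fold change of all tested genes after LPS by 0.78 in KO and by 0.74 in WT, to -0.88 and -0.80. Directions after LPS are therefore given under both scalings. In bulk RNA, fewer cells of a type and less RNA per cell cannot be told apart.

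The promoters of the members were read for the sequence TCACGTGA, the palindromic core of the element that TFEB and TFE3 bind, in the window of 250 bases before to 50 after each gene's start (RefSeq, GRCm38.p6). Of the V-ATPase genes, 15 of 21 had a window, and 3 of them (20%) held it, namely Atp6v0d1, Atp6v0e and Atp6v1a. Of the lysosomal genes, 28 of 31 had a window, and 4 (14.3%) held it, namely Ctsa, Ctsd, Gla and Mcoln1. Among all tested genes with a window the share was 2.2%, or 212 of 9641. The shorter CACGTG, which every TCACGTGA contains, stood in a window of 4 V-ATPase genes (26.7%) and of 8 lysosomal genes (28.6%), against 11.8% of tested genes with a window. A STAT-type element, TTCNNNGAA, was searched because STAT factors are named in the title of the series. It stood in a window of 0 of 15 V-ATPase genes and of 2 of 28 lysosomal genes, Ctsc and Gm2a, against 8.32% of tested genes with a window. CACGTG, TCACGTGA and TTCNNNGAA read the same on both strands, and a match describes these letters only. A pair of stretches that lie wholly before the gene start is printed below, with TCACGTGA in capitals, to show a V-ATPase gene with 1 copy and a hydrolase gene with 2. That of Atp6v1a is chr16:44139324-44139451 and that of Gla is chrX:134601133-134601255 (both GRCm38.p6, minus strand, 5′ to 3′).
Atp6v1a: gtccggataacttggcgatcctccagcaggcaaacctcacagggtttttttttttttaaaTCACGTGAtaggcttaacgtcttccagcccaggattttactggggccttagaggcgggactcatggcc
Gla: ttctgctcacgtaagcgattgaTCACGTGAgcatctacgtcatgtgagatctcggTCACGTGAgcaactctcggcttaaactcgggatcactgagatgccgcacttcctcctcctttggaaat
The Atp6v1a copy begins 132 bases before the start, and the Gla copies begin 228 and 195 bases before it. Genes with TCACGTGA did not share a response to LPS. Atp6v1a, Atp6v0d1 and Gla were called higher in both genotypes, Atp6v0e in WT only, Ctsa was called lower in KO only, and Ctsd and Mcoln1 were called in neither.

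Most V-ATPase subunit genes were higher with LPS in TMM-scaled values, and a core of 7 stayed so under total-count scaling. By TMM, 13 subunit genes were higher and 1 lower of 16 tested in KO, and 14 were higher and 1 lower in WT, with a median log2 fold change of 0.76 in KO and 0.83 in WT. Most measured genes changed with LPS in these cells: of all 11989 genes tested, 86.2% were called in KO (40% higher, 46.2% lower) and 85.5% in WT (40.7% higher, 44.7% lower), at medians of -0.10 and -0.06. A call means a Benjamini-Hochberg adjusted p under 0.05 in edgeR's quasi-likelihood test over all tested genes. Under total-count scaling 7 subunits were higher and 6 lower in KO, and 7 higher and 7 lower in WT. Of all genes 90.5% were then called in KO (20.2% higher) and 89.7% in WT (19.8% higher). In KO 6 calls turned negative (Atp6v0a2, Atp6v0b, Atp6v1c1, Atp6v1e1, Atp6v1f and Atp6v1h), and in WT 5 (Atp6v0b, Atp6v0e, Atp6v1c1, Atp6v1f and Atp6v1h). The LPS and control libraries did not overlap for 14 of 16 subunits in either genotype, against 81.8% of all genes in KO and 77.9% in WT.

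**Figure D1:**
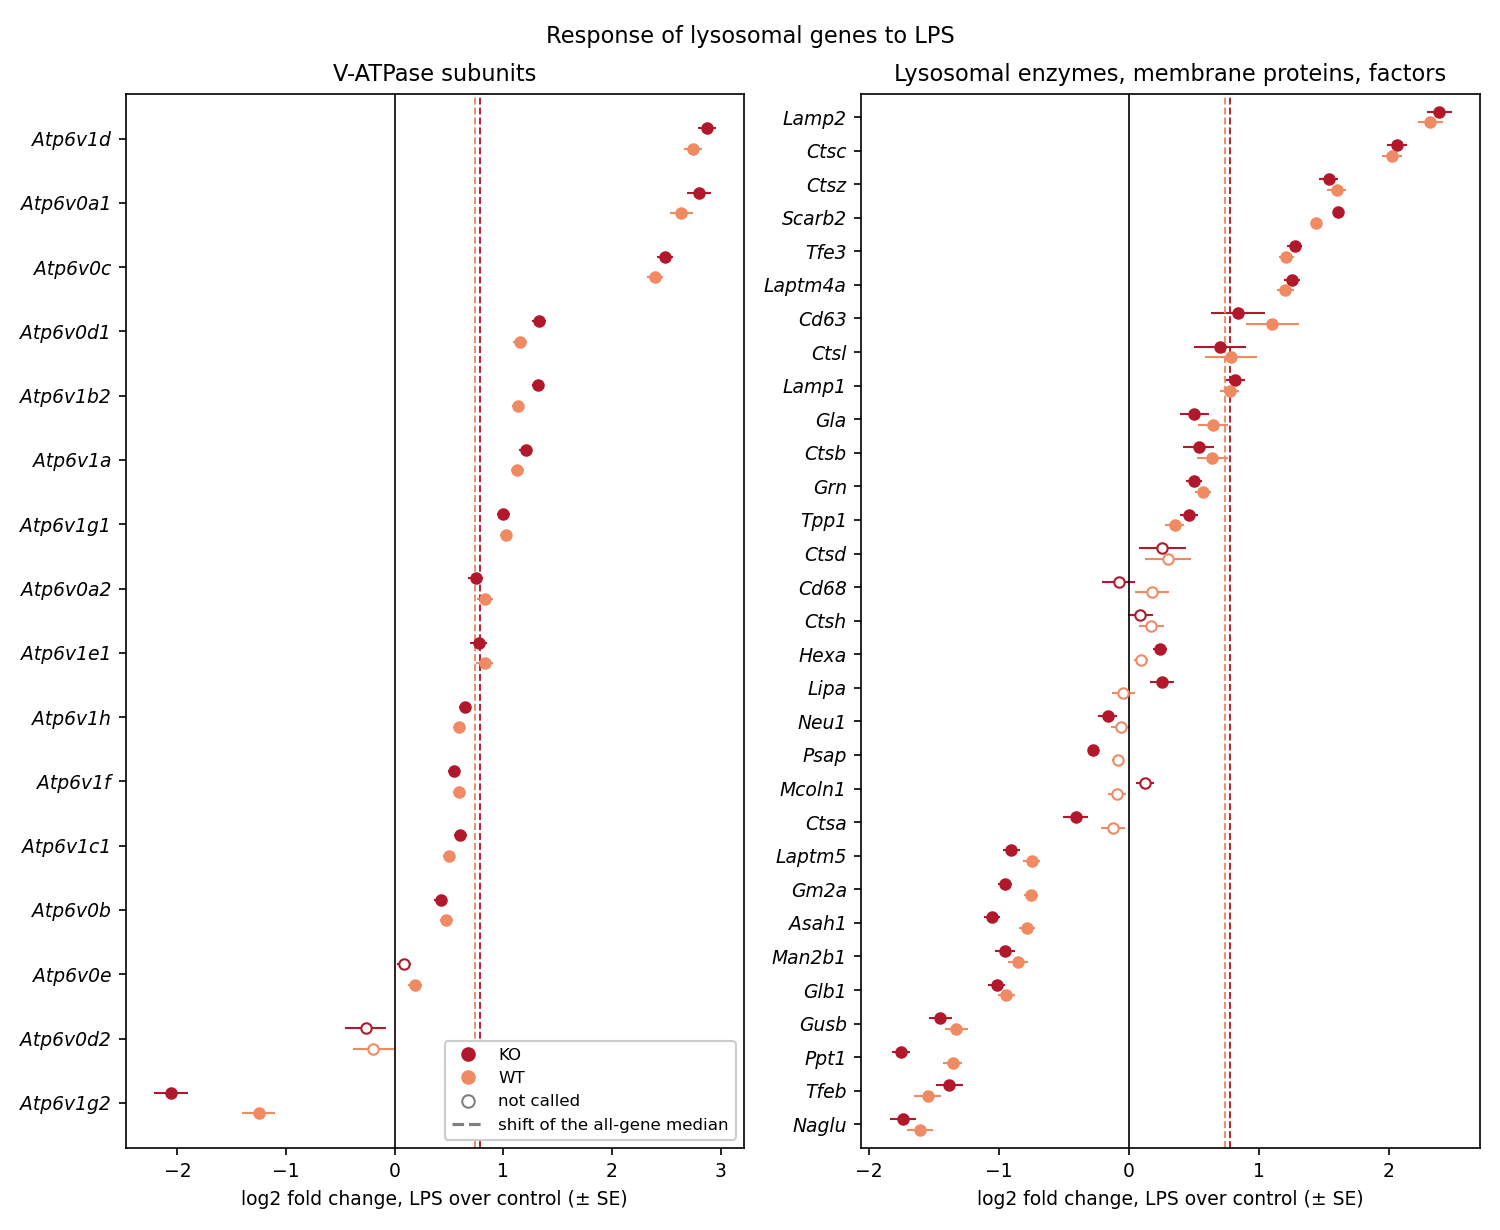
Log2 fold change of LPS over control (x axis, ± SE) for the 16 tested V-ATPase genes (left) and the 31 lysosomal genes (right), in KO (dark red) and WT (orange). Filled points passed an adjusted p under 0.05, open points did not. Dashed lines mark the size of the shift that total-count scaling gives the median of all genes (0.78 in KO, 0.74 in WT): points between 0 and their dashed line turn negative or lie near 0 under that scaling. Atp6v1d, Atp6v0a1 and Atp6v0c stand apart at 2.39 to 2.87, and the lysosomal genes spread from -1.75 to 2.39.

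The highest fold changes were those of Atp6v1d, Atp6v0a1 and Atp6v0c in both genotypes. Atp6v1d encodes the D subunit of the central shaft that turns inside V1. It had 401, 412, 405, 424 and 399.8 CPM in KO LPS libraries and 349.7, 461, 345, 346 and 368 CPM in WT LPS libraries, against 54.1, 51.9, 53.0 and 64.1 CPM in KO controls and 55.1, 56.8, 54.8 and 56.2 CPM in WT controls. Every LPS library stood above every control library, and WT LPS replicate 2 was the highest. Its log2 fold change was 2.87 ± 0.08 in KO and 2.75 ± 0.08 in WT (SE, adjusted p = 4.7e-17 and 9.9e-17).

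Atp6v0a1 encodes an a subunit, the V0 protein that forms the path for protons and targets the pump to a membrane. Its level was 241, 213, 173, 204 and 218 CPM in KO LPS libraries and 203, 259.7, 179, 188 and 229 CPM in WT LPS libraries, against 32.9, 29.1, 30.3 and 28.4 CPM in KO controls and 33.1, 35.6, 32.7 and 34.7 CPM in WT controls. The fold change of LPS over control on the log2 scale was 2.80 ± 0.11 in KO and 2.64 ± 0.11 in WT. Atp6v0c encodes the main subunit of the rotating c ring that carries protons. It had 799.6, 678, 681, 747 and 719 CPM in KO LPS libraries and 712, 693, 576, 608 and 659 CPM in WT LPS libraries, against 124, 125, 125 and 144 CPM in KO controls and 128, 126, 118 and 123 CPM in WT controls, a log2 fold change of 2.48 ± 0.07 in KO and 2.39 ± 0.07 in WT. For each of these genes the LPS and control groups were far apart, and the genotypes overlapped within each treatment. Under total-count scaling the log2 fold changes of Atp6v1d, Atp6v0a1 and Atp6v0c in KO were 2.09, 2.02 and 1.70, and in WT 2.00, 1.88 and 1.65.

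A middle group rose by about the same amount. Atp6v0d1, the V0 subunit that joins the c ring to the shaft, had 181, 157, 162, 168 and 166 CPM in KO LPS libraries and 148, 164, 136, 130.4 and 141 CPM in WT LPS libraries, against 67.5, 64.7, 65.1 and 68.9 CPM in KO controls and 65.3, 70.3, 60.4 and 63.2 CPM in WT controls. Atp6v1b2, a B subunit of the ATP-splitting head, had 358, 352, 345, 345 and 335 CPM in KO LPS libraries and 306, 354, 285, 295 and 305 CPM in WT LPS libraries, against 139, 138, 136 and 144 CPM in KO controls and 140.2, 144, 140.4 and 138 CPM in WT controls. Their log2 fold changes were 1.33 ± 0.06 in KO and 1.15 ± 0.06 in WT for Atp6v0d1, and 1.32 ± 0.05 in KO and 1.13 ± 0.05 in WT for Atp6v1b2. Atp6v1a, the catalytic A subunit of the same head, averaged 143 ± 8.30 CPM in KO LPS, against 61.9 ± 1.35 CPM in KO control, and 154 ± 10.9 CPM in WT LPS, against 70.5 ± 4.02 CPM in WT control (SD). Atp6v1g1, a G subunit of the outer stalk, had log2 fold changes of 1.00 ± 0.06 in KO and 1.02 ± 0.06 in WT. These 4 genes had LPS libraries above all control libraries and stayed higher under total-count scaling, at 0.22 to 0.54 in KO and 0.28 to 0.40 in WT.

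The smallest calls depended on the scaling. Atp6v0b, the c'' subunit of the ring, had 141, 123, 137, 137 and 133 CPM in KO LPS libraries and 144, 115, 129, 128 and 126 CPM in WT LPS libraries, against 97.3, 98.1, 96.7 and 108 CPM in KO controls and 94.1, 98.0, 87.0 and 90.3 CPM in WT controls. Atp6v1c1, the C subunit that clamps V1 to V0, had 65.7, 64.7, 67.2, 68.9 and 64.7 CPM in KO LPS libraries and 63.7, 73.4, 60.9, 63.4 and 64.0 CPM in WT LPS libraries, against 44.1, 41.3, 41.2 and 47.6 CPM in KO controls and 46.0, 45.6, 44.7 and 47.5 CPM in WT controls. Atp6v1f, the F subunit of the shaft, had 72.9, 70.5, 64.2, 68.7 and 70.2 CPM in KO LPS libraries and 69.5, 64.2, 61.6, 59.1 and 64.1 CPM in WT LPS libraries, against 48.9, 45.7, 45.2 and 50.2 CPM in KO controls and 44.6, 43.8, 39.3 and 41.4 CPM in WT controls. In all 3 genes the LPS libraries lay above the control libraries in TMM-scaled CPM. Their log2 fold changes were 0.42 to 0.60 in KO and 0.47 to 0.59 in WT, and under total-count scaling -0.36 to -0.18 in KO and -0.27 to -0.15 in WT. Atp6v1h, the regulatory H subunit, behaved alike, at 0.65 ± 0.06 in KO and 0.59 ± 0.06 in WT, and -0.13 and -0.15 under total-count scaling. Atp6v0e, the small e subunit of V0, had LPS and control libraries that overlapped, at 0.09 ± 0.07 in KO (adjusted p = 0.23) and 0.19 ± 0.07 in WT (adjusted p = 0.014). Of the remaining members with a call, Atp6v0a2, an a subunit, had 0.74 ± 0.07 in KO and 0.83 ± 0.07 in WT and Atp6v1e1, the E subunit of the outer stalk, had 0.77 ± 0.08 in KO and 0.83 ± 0.08 in WT.

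Of the tissue-restricted subunits, Atp6v1g2 fell, and the result for Atp6v0d2 depended on 2 libraries. Atp6v1g2, a G subunit known from brain, was low throughout, with 0.614, 0.742, 0.642, 0.702 and 1.05 CPM in KO LPS libraries and 0.941, 0.817, 1.27, 1.17 and 0.903 CPM in WT LPS libraries, against 2.99, 3.04, 3.09 and 3.47 CPM in KO controls and 2.04, 2.45, 2.58 and 2.73 CPM in WT controls. It fell in both genotypes (log2 fold change -2.06 ± 0.16 in KO and -1.25 ± 0.15 in WT), and no LPS library reached a control library. Atp6v0d2, the d subunit known from osteoclasts and some macrophages, had 15.5, 33.5, 17.9, 16.5 and 20.9 CPM in KO LPS libraries and 19.4, 34.3, 20.5, 18.6 and 22.4 CPM in WT LPS libraries, against 23.5, 23.8, 23.4 and 29.8 CPM in KO controls and 24.3, 26.3, 26.0 and 28.7 CPM in WT controls. Its log2 fold change was -0.27 ± 0.19 in KO (adjusted p = 0.19) and -0.20 ± 0.19 in WT (adjusted p = 0.34). Without both replicate 2 libraries it was called lower, at -0.48 ± 0.09 in KO (adjusted p = 7.8e-05) and -0.39 ± 0.09 in WT (adjusted p = 0.00052). It was called lower too with a block for the run of library numbers, at -0.49 ± 0.05 in KO (adjusted p = 3e-07) and -0.40 ± 0.05 in WT (adjusted p = 2.8e-06). Under total-count scaling Atp6v0d2 was at -1.05 in KO and -0.95 in WT. That scaling lowers the median of all genes by 0.78 in KO and 0.74 in WT, so these values are not read as separate signs of a fall. In both LPS groups replicate 2 was highest and stood above every control library, as the macrophage marker sum of the same libraries did in the LPS groups, and the part of those cells in this level was not tested.

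**Figure D2:**
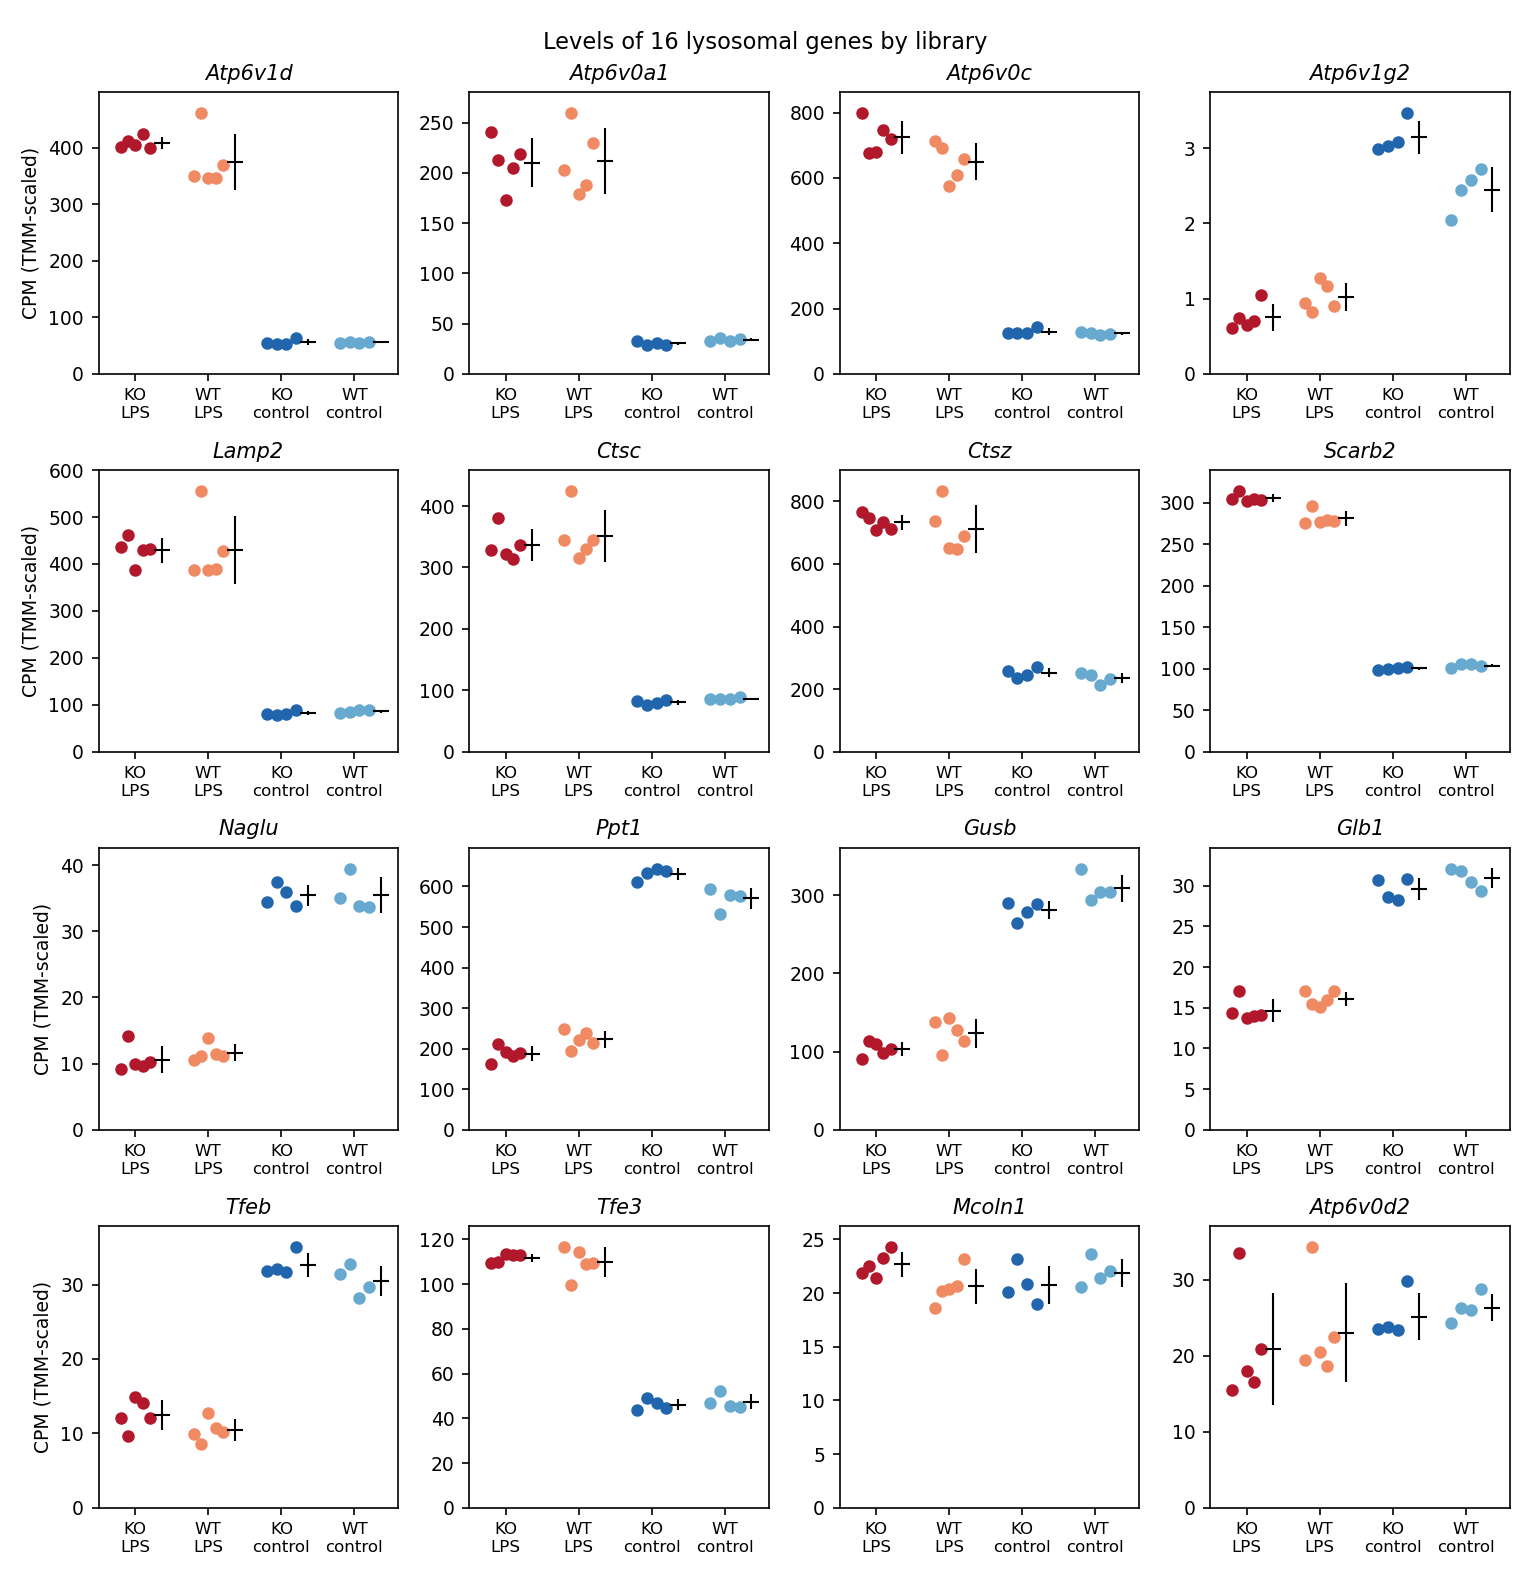
TMM-scaled CPM (y axes, from 0) of 16 of the genes in each library (points) by group, from left KO LPS, WT LPS, KO control and WT control; black marks are the mean ± SD (n = 5, 5, 4 and 4). Atp6v1d, Atp6v0a1, Atp6v0c, Lamp2, Ctsc, Ctsz, Scarb2 and Tfe3 stand higher with LPS, Atp6v1g2, Naglu, Ppt1, Gusb, Glb1 and Tfeb lower, and Mcoln1 and Atp6v0d2 overlap.

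The paralogue shares of V0 transcripts shifted with these changes, and protein was not measured. Levels of different genes are compared here per transcript length, as TPM (transcripts per 1000000). At the a position the genes measured are Atp6v0a1, Atp6v0a2 and Tcirg1, the last of which encodes the a3 subunit known from osteoclasts and secretory lysosomes and is not among the members by symbol. Atp6v0a1 made up 28.8% ± 2.59 of their summed TPM in KO LPS and 29.1% ± 4.04 in WT LPS, against 8.96% ± 0.711 in KO control and 9.96% ± 0.365 in WT control (SD, n = 5, 5, 4 and 4). Tcirg1 made up 41.1% ± 0.891 in KO LPS and 39.0% ± 0.871 in WT LPS, against 53.1% ± 1.86 in KO control and 53.7% ± 0.752 in WT control. Atp6v0a2 made up 30.1% ± 2.12 in KO LPS and 32.0% ± 3.73 in WT LPS, against 37.9% ± 1.24 in KO control and 36.4% ± 0.754 in WT control. At the d position Atp6v0d1 made up 92.9% ± 2.61 in KO LPS and 91.2% ± 1.55 in WT LPS, against 81.3% ± 1.53 in KO control and 80.1% ± 1.64 in WT control. For Atp6v0a1, Tcirg1 and Atp6v0d1 no LPS library overlapped a control library of its genotype, and shares do not depend on the scaling between libraries. At the G position Atp6v1g1 made up at least 97.4% of the summed TPM in every library.

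**Figure D3:**
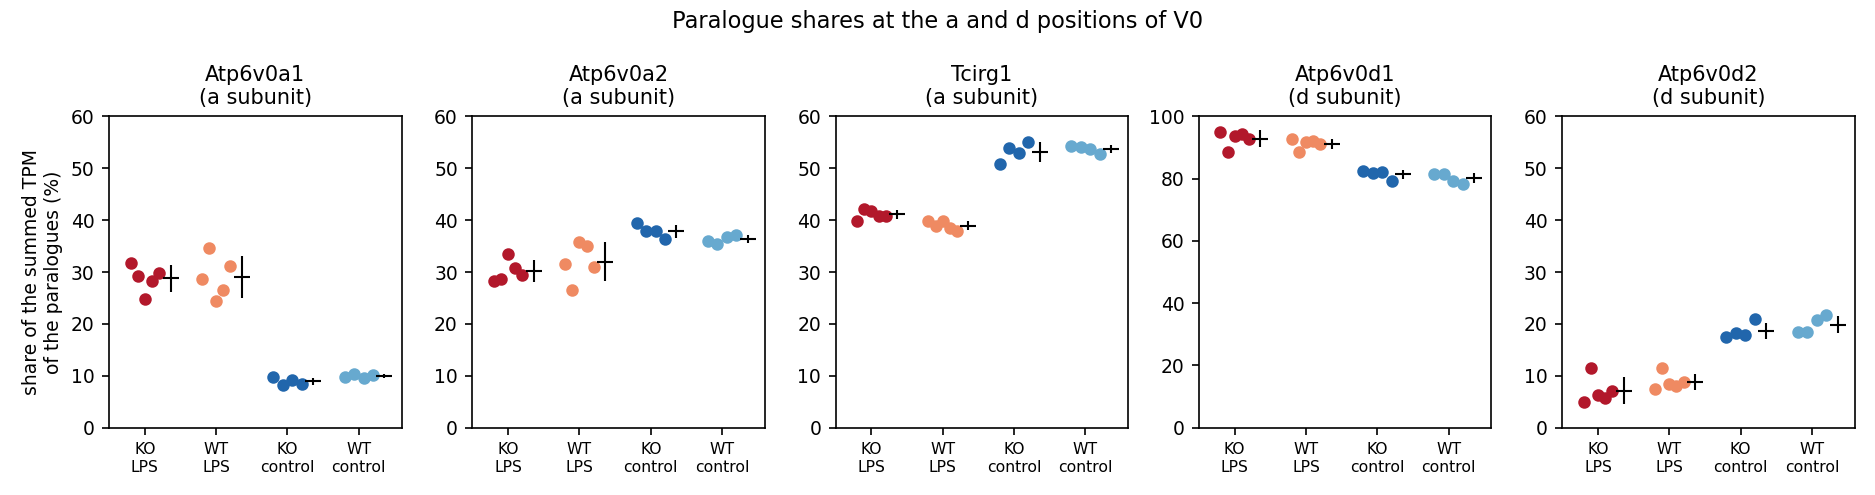
Share of each paralogue in the summed TPM of its subunit position (y axes, %), in each library (points) by group, with the mean ± SD in black. The a position is Atp6v0a1, Atp6v0a2 and Tcirg1, the d position Atp6v0d1 and Atp6v0d2; the axis runs to 60% except for Atp6v0d1, where it runs to 100%. Atp6v0a1 is near 29% in LPS libraries and near 9 to 10% in controls.

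The calls of the hydrolases are given here by kind. Of 21 hydrolases and activators, 9 were higher (42.9%) and 10 lower (47.6%) with LPS in KO. In WT 7 were higher and 7 lower (33.3% each). Of all genes 40% were higher and 46.2% lower in KO, and 40.7% and 44.7% in WT. The 8 proteases held most of the higher calls, with 5 higher (62.5%) and 1 lower in KO and 5 higher (62.5%) and 0 lower in WT. The 13 other enzymes and activators held most of the lower calls, with 4 higher and 9 lower (69.2%) in KO. In WT 2 of them were higher and 7 lower (53.8%). These lists are short, and counts near the shares of all genes are not read as results about a kind. Total-count scaling moves log2 fold changes after LPS down, so no lower call was able to turn positive there. The counts for proteases became 2 higher and 5 lower in KO and 2 and 4 in WT. For the others they became 0 higher and 13 lower in KO and 0 and 12 in WT. Of all genes 70.4% were then called lower in KO and 69.9% in WT. Under that scaling the proteases too held more lower than higher calls. The medians of the 31 lysosomal genes were 0.24 in KO and 0.17 in WT, and -0.54 and -0.58 under total-count scaling.

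Among the proteases, Ctsc and Ctsz rose most and kept their direction under both scalings. Ctsc encodes cathepsin C, a dipeptidyl peptidase that activates granule proteases. It had 328, 381, 322, 314 and 336 CPM in KO LPS libraries and 344, 425, 316, 329.7 and 344 CPM in WT LPS libraries, against 82.1, 76.0, 79.2 and 84.5 CPM in KO controls and 86.0, 85.6, 86.0 and 89.1 CPM in WT controls, a log2 fold change of 2.06 ± 0.08 in KO and 2.02 ± 0.08 in WT. Ctsz encodes cathepsin Z, a carboxypeptidase. It had 766, 746, 709, 735 and 712 CPM in KO LPS libraries and 739, 834, 651, 649 and 690.5 CPM in WT LPS libraries, against 259, 235, 246 and 272 CPM in KO controls and 251, 245, 214 and 232 CPM in WT controls, a log2 fold change of 1.54 ± 0.07 in KO and 1.60 ± 0.07 in WT. Both had LPS libraries far above the controls, with WT LPS replicate 2 the highest.

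The endopeptidases Ctsb and Ctsl rose less and varied more between libraries. Ctsb, cathepsin B, had 739.8, 1127, 759, 745 and 840.0 CPM in KO LPS libraries and 857, 1207, 835, 817 and 924 CPM in WT LPS libraries, against 556, 562, 560.0 and 646 CPM in KO controls and 592, 595, 570.1 and 620.3 CPM in WT controls. Ctsl, cathepsin L, had 117, 253, 114, 124 and 165 CPM in KO LPS libraries and 178, 268, 157, 165 and 182 CPM in WT LPS libraries, against 88.8, 84.8, 88.8 and 118 CPM in KO controls and 113, 106, 105 and 116 CPM in WT controls. Replicate 2 was the highest library of both LPS groups for both genes, and in KO the Ctsl groups overlapped. The summed macrophage markers of these libraries were 1498 CPM in KO and 1854 CPM in WT, against at most 1110 CPM in the other KO LPS and 1281 CPM in the other WT LPS libraries, and their part in these levels was not tested. The log2 fold change of Ctsb was 0.54 ± 0.12 in KO and 0.64 ± 0.12 in WT and that of Ctsl 0.70 ± 0.20 in KO and 0.79 ± 0.20 in WT. Without both replicate 2 libraries Ctsb was at 0.43 ± 0.06 in KO and 0.52 ± 0.06 in WT and Ctsl at 0.47 ± 0.11 in KO and 0.62 ± 0.10 in WT, all still called. Under total-count scaling Ctsb turned to -0.24 in KO and -0.11 in WT, and Ctsl to -0.08 in KO while it stayed at 0.03 in WT. Tpp1, a tripeptidyl peptidase, had 0.46 ± 0.07 in KO and 0.35 ± 0.07 in WT and turned to -0.32 and -0.40. Ctsa, a carboxypeptidase that protects the sialidase NEU1, was called lower in KO at -0.41 ± 0.09 and was at -0.12 ± 0.09 in WT (adjusted p = 0.24), where it was called lower without both replicate 2 libraries (-0.19 ± 0.06, adjusted p = 0.0051). Ctsd, the aspartic protease cathepsin D, and Ctsh, the aminopeptidase cathepsin H, did not pass the test, at 0.26 ± 0.18 in KO and 0.30 ± 0.18 in WT for Ctsd and 0.09 ± 0.10 in KO and 0.17 ± 0.10 in WT for Ctsh.

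Of 7 glycosidases, which cut sugar chains, 2 were higher and 5 lower in KO, and 1 higher and 4 lower in WT, with medians of -0.95 and -0.85, where 46.2% and 44.7% of all genes were lower. Naglu, which degrades heparan sulfate, had 9.11, 14.2, 9.98, 9.62 and 10.2 CPM in KO LPS libraries and 10.6, 11.1, 13.8, 11.5 and 11.2 CPM in WT LPS libraries, against 34.5, 37.5, 35.9 and 33.9 CPM in KO controls and 35.0, 39.4, 33.8 and 33.7 CPM in WT controls. Gusb, the beta-glucuronidase, had 90.4, 113, 109, 98.2 and 103 CPM in KO LPS libraries and 137, 95.6, 142, 127 and 113 CPM in WT LPS libraries, against 289.7, 265, 278 and 289 CPM in KO controls and 334, 293, 304 and 304 CPM in WT controls. Glb1, the beta-galactosidase, had 14.3, 17.1, 13.7, 14.0 and 14.1 CPM in KO LPS libraries and 17.0, 15.4, 15.1, 16.0 and 17.0 CPM in WT LPS libraries, against 30.7, 28.6, 28.3 and 30.8 CPM in KO controls and 32.1, 31.8, 30.5 and 29.4 CPM in WT controls. For all 3 genes every LPS library lay far below every control library. On the log2 scale the change was -1.74 ± 0.10 in KO and -1.61 ± 0.10 in WT for Naglu. Gusb had -1.45 ± 0.09 in KO and -1.33 ± 0.09 in WT, Glb1 -1.01 ± 0.06 in KO and -0.94 ± 0.06 in WT and Man2b1, the alpha-mannosidase, -0.95 ± 0.08 in KO and -0.85 ± 0.08 in WT. Gla, the alpha-galactosidase, was the gene called higher in both genotypes, at 0.50 ± 0.11 in KO and 0.65 ± 0.11 in WT, and it turned to -0.28 and -0.10 under total-count scaling. Hexa, a subunit of beta-hexosaminidase, was called higher and Neu1, the sialidase, lower in KO alone (Hexa 0.24 ± 0.05, turning to -0.54 under total-count scaling, and Neu1 -0.16 ± 0.07, adjusted p = 0.048 in edgeR and 0.41 in DESeq2). In WT they were at 0.09 ± 0.05 and -0.06 ± 0.07. Without both replicate 2 libraries Neu1 in KO was no longer called (-0.12 ± 0.07, adjusted p = 0.12) and Hexa in WT was, as higher by TMM (0.11 ± 0.05, adjusted p = 0.039).

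Of 6 genes of lipid breakdown, 2 were higher and 4 lower with LPS in KO, and 1 higher and 3 lower in WT, where 46.2% of all genes were lower in KO and 44.7% in WT. Ppt1, which strips palmitate from proteins, had 161, 212, 192, 182 and 189.6 CPM in KO LPS libraries and 247, 193, 223, 239 and 213 CPM in WT LPS libraries, against 610.4, 633, 643 and 637 CPM in KO controls and 594, 533, 578 and 578 CPM in WT controls. Asah1, the acid ceramidase, had 80.3, 106, 89.6, 85.0 and 84.8 CPM in KO LPS libraries and 109, 118, 112, 111 and 101 CPM in WT LPS libraries, against 185, 180.3, 185 and 189 CPM in KO controls and 193, 187, 192 and 187 CPM in WT controls. Every LPS library of both genes was below every control library. The log2 fold change was -1.75 ± 0.07 in KO and -1.36 ± 0.07 in WT for Ppt1 and -1.05 ± 0.06 in KO and -0.78 ± 0.06 in WT for Asah1. Gm2a, the activator that lifts GM2 ganglioside out of the membrane, averaged 1192 ± 98.3 CPM in KO LPS, against 2310 ± 45.2 CPM in KO control, and 1128 ± 33.8 CPM in WT LPS, against 1902 ± 58.1 CPM in WT control (SD). Psap, the precursor of the saposins that activate sphingolipid hydrolases, was called lower in KO at -0.27 ± 0.04 and was at -0.08 ± 0.04 in WT (adjusted p = 0.081). Grn, progranulin, was called higher at 0.50 ± 0.06 in KO and 0.57 ± 0.06 in WT and turned to -0.28 and -0.18 under total-count scaling. Lipa, the acid lipase, was called higher in KO at 0.25 ± 0.09, turning to -0.53 under total-count scaling, and was at -0.04 ± 0.09 in WT.

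On the TPM scale Psap had the highest level of all 52 members in every group. It averaged 3518 ± 216 TPM in KO LPS and 3623 ± 279 TPM in WT LPS, against 6670 ± 192 TPM in KO control and 6364 ± 159.9 TPM in WT control (SD). Among all genes it ranked 35 and 34 in the KO and WT LPS groups and 10 in both control groups. Among V-ATPase genes Atp6v0c was the highest with LPS, at 985 TPM in KO and 912 TPM in WT, against 277 TPM in KO control and 289 TPM in WT control. In controls Atp6v0e stood above it, at 314 TPM in KO and 309.9 TPM in WT. TPM values sum to the same total in each library, so they carry the shift described for total-count scaling.

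Of 8 membrane proteins, 5 were higher and 1 lower with LPS in both genotypes, and under total-count scaling 3 were higher and 3 lower in each, with no higher call turning negative. Among all genes 40% were higher and 46.2% lower in KO, and 40.7% and 44.7% in WT. Lamp2, which lines the lysosome and serves chaperone-mediated autophagy, had 436, 461, 387, 429.9 and 432 CPM in KO LPS libraries and 388, 556, 388, 390.2 and 428 CPM in WT LPS libraries, against 80.3, 79.0, 79.7 and 89.0 CPM in KO controls and 82.9, 84.2, 89.1 and 88.4 CPM in WT controls. Scarb2, which carries glucocerebrosidase to the lysosome, had 304, 314, 303, 304 and 304 CPM in KO LPS libraries and 276, 297, 277, 279.5 and 278 CPM in WT LPS libraries, against 98.2, 100.1, 101 and 102 CPM in KO controls and 101, 105, 106 and 103 CPM in WT controls. The groups were clearly separate, and the log2 fold change was 2.39 ± 0.09 in KO and 2.32 ± 0.09 in WT for Lamp2 and 1.61 ± 0.04 in KO and 1.44 ± 0.04 in WT for Scarb2. Laptm4a, a small multispanning protein, rose by 1.26 ± 0.06 in KO and 1.20 ± 0.06 in WT. Cd63, a tetraspanin, had 0.84 ± 0.21 in KO and 1.10 ± 0.21 in WT, and Lamp1 0.82 ± 0.08 in KO and 0.78 ± 0.08 in WT. Laptm5, the blood cell relative of Laptm4a, fell, at -0.91 ± 0.07 in KO and -0.75 ± 0.07 in WT. Mcoln1, the calcium channel whose opening is known to activate TFEB, had 21.9, 22.6, 21.4, 23.3 and 24.3 CPM in KO LPS libraries and 18.6, 20.2, 20.4, 20.7 and 23.2 CPM in WT LPS libraries, against 20.1, 23.1, 20.9 and 19.0 CPM in KO controls and 20.6, 23.6, 21.4 and 22.0 CPM in WT controls. Its groups overlapped, at 0.13 ± 0.07 in KO (adjusted p = 0.094) and -0.09 ± 0.07 in WT (adjusted p = 0.24). In KO it turned to -0.65 under total-count scaling, and it was called higher in DESeq2 (0.22, adjusted p = 0.0043). Cd68, a lysosomal glycoprotein of macrophages, did not pass the test either, at -0.08 ± 0.13 in KO and 0.18 ± 0.13 in WT, but in KO it was called lower without both replicate 2 libraries (-0.16 ± 0.07, adjusted p = 0.038). For Lamp2 that fit gave 2.38 ± 0.05 in KO and 2.20 ± 0.05 in WT.

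The related factors moved in opposite directions. Tfeb had 12.1, 9.64, 14.8, 14.0 and 12.0 CPM in KO LPS libraries and 9.90, 8.63, 12.7, 10.7 and 10.2 CPM in WT LPS libraries, against 31.8, 32.1, 31.6 and 35.1 CPM in KO controls and 31.5, 32.7, 28.2 and 29.7 CPM in WT controls. Tfe3 had 109, 109.8, 113, 113 and 113 CPM in KO LPS libraries and 117, 99.3, 114, 109 and 109 CPM in WT LPS libraries, against 43.5, 49.3, 47.0 and 44.8 CPM in KO controls and 47.0, 52.2, 45.4 and 44.8 CPM in WT controls. For Tfeb every LPS library lay below every control library, and for Tfe3 every one lay above. The log2 fold change of Tfeb was -1.38 ± 0.10 in KO and -1.54 ± 0.10 in WT. That of Tfe3 was 1.28 ± 0.06 in KO and 1.21 ± 0.06 in WT. Under total-count scaling Tfe3 stayed higher (0.49 in KO and 0.47 in WT), while Tfeb was at -2.16 and -2.28. On the TPM scale Tfeb averaged 7.37 ± 1.26 TPM in KO LPS and 6.37 ± 1.19 TPM in WT LPS, against 30.5 ± 0.683 TPM in KO control and 31.02 ± 1.10 TPM in WT control. Tfe3 averaged 45.9 ± 1.64 TPM in KO LPS and 46.9 ± 4.39 TPM in WT LPS, against 30.2 ± 2.05 TPM in KO control and 33.5 ± 1.82 TPM in WT control (SD).

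Other genes of the organelle were taken from lists of known function. Of 40 other hydrolases and cofactors, 12 were higher and 20 lower with LPS in KO and 14 higher and 17 lower in WT, and under total-count scaling 5 and 33 in KO and 5 and 31 in WT. By TMM these were 30% and 50% of the list in KO and 35% and 42.5% in WT. The shares of all genes were 40% and 46.2% in KO and 40.7% and 44.7% in WT. Under total-count scaling the all-gene shares were 20.2% and 70.4% in KO and 19.8% and 69.9% in WT. Counts near these shares are not read as results about a list. Sgsh, another heparan sulfate enzyme, averaged 0.829 CPM in KO LPS, against 39.3 CPM in KO control, and 1.29 CPM in WT LPS, against 37.4 CPM in WT control. Manba, the beta-mannosidase, fell, with a log2 fold change of -3.67 ± 0.11 in KO and -3.45 ± 0.10 in WT, and Pla2g15, the lysosomal phospholipase, had -2.30 ± 0.15 in KO and -1.99 ± 0.15 in WT. Npc2, which carries cholesterol out of the lysosome, averaged 1409 CPM in KO LPS, against 276 CPM in KO control, and 1270 CPM in WT LPS, against 233 CPM in WT control. Acp5, the tartrate-resistant phosphatase that also marks osteoclasts, had 2.15 ± 0.28 in KO and 2.55 ± 0.29 in WT, and the asparaginyl protease Lgmn 1.68 ± 0.15 in KO and 1.90 ± 0.15 in WT. Dpp7, a dipeptidyl peptidase, had 1.88 ± 0.09 in KO and 1.61 ± 0.09 in WT.

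Of 26 other membrane proteins and transporters, 12 were higher and 11 lower in both KO and WT (9 and 16 in KO, 8 and 14 in WT under total-count scaling). By TMM these were 46.2% and 42.3% of the list, near the shares of all genes (40% and 46.2% in KO, 40.7% and 44.7% in WT). Tpcn1, an endolysosomal cation channel, averaged 6.54 CPM in KO LPS, against 164 CPM in KO control, and 7.44 CPM in WT LPS, against 161 CPM in WT control. Its relative Tpcn2 fell in WT at -1.68 ± 0.09, the lipid transporter Abca2 at -2.69 ± 0.12 in KO and -2.50 ± 0.12 in WT and Slc38a9, an amino acid sensor, in KO at -1.72 ± 0.06. Tpcn2 and Slc38a9 are given for 1 genotype only because up to 3 lowest genes were named per list and genotype. Neither passed the test of a different LPS response between genotypes, so these falls are not read as confined to 1 genotype. The highest were Laptm4b (3.57 ± 0.10 in KO and 3.49 ± 0.10 in WT), the peptide transporter Slc15a3 (3.55 ± 0.12 in KO and 3.27 ± 0.12 in WT) and Cln3 (2.22 ± 0.06 in KO and 2.00 ± 0.06 in WT).

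The factors that assemble or regulate the V-ATPase did not follow its subunits as a list. Of 12 tested, 4 were higher and 8 lower with LPS in KO, and 3 higher and 8 lower in WT, at medians of -0.59 and -0.49, and 2 higher and 10 lower in both genotypes under total-count scaling. By TMM 66.7% of the list was lower in each genotype, against 46.2% of all genes in KO and 44.7% in WT. Higher were 33.3% in KO and 25% in WT, against 40% and 40.7% of all genes. Ncoa7, a TLDc protein that binds the pump, was the highest at 3.16 ± 0.11 in KO and 2.70 ± 0.10 in WT, followed by Atp6ap2, an accessory subunit, at 1.30 ± 0.05 in KO and 1.07 ± 0.05 in WT. Vma21, an assembly chaperone, was called higher at 0.27 ± 0.08 in KO and 0.22 ± 0.08 in WT and turned to -0.52 and -0.53 under total-count scaling. The assembly factors Ccdc115 and Tmem199 fell, at -1.33 ± 0.15 in KO and -0.98 ± 0.15 in WT for Ccdc115 and -1.12 ± 0.11 in KO and -0.93 ± 0.11 in WT for Tmem199. Dmxl2, of the complex that puts V1 on V0, fell in WT at -0.88 ± 0.21, and Meak7 in KO at -0.998 ± 0.078. Both are given for 1 genotype only because of the same naming rule. The test of a different LPS response between genotypes called 0 of the 12 genes of this list. Tcirg1, the a3 subunit of the pump, is on none of these lysosomal lists and averaged 206 ± 4.82 CPM in KO LPS, against 126 ± 3.70 CPM in KO control, and 192 ± 6.57 CPM in WT LPS, against 131 ± 6.29 CPM in WT control.

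Of 16 genes that sort enzymes to the lysosome, 8 were higher and 7 lower in KO and 8 higher and 6 lower in WT (3 and 10, and 2 and 12, under total-count scaling). By TMM these were 50% and 43.8% of the list in KO and 50% and 37.5% in WT. The shares of all genes, for this list and the next, were 40% and 46.2% in KO and 40.7% and 44.7% in WT. M6pr, the cation-dependent mannose 6-phosphate receptor, averaged 1973 CPM in KO LPS, against 353 CPM in KO control, and 2012 CPM in WT LPS, against 376 CPM in WT control. The adaptor genes Ap1g1 (1.12 ± 0.05 in KO and 0.98 ± 0.05 in WT) and Gga3 (1.13 ± 0.06 in KO and 0.65 ± 0.06 in WT) were called higher, and Gga3 in WT turned to -0.09 under total-count scaling. Cln6 (-2.60 ± 0.10 in KO and -2.50 ± 0.10 in WT) and Cln8 (-2.35 ± 0.11 in KO and -2.33 ± 0.11 in WT), which carry enzymes out of the endoplasmic reticulum, and the adaptor Gga2 (-1.33 ± 0.08 in KO and -1.38 ± 0.08 in WT) fell. Of 22 relatives of TFEB and genes of nutrient sensing at the lysosome, 14 were higher and 5 lower in KO and 15 higher and 6 lower in WT (8 and 12, and 8 and 11, under total-count scaling). Tfec, a low relative of Tfeb, averaged 2.50 CPM in KO LPS, against 0.517 CPM in KO control, and 2.66 CPM in WT LPS, against 0.289 CPM in WT control. Mitf rose by 1.76 ± 0.20 in KO and 1.70 ± 0.20 in WT and Rragc, a Rag GTPase, by 1.46 ± 0.07 in KO and 1.26 ± 0.07 in WT, while Rragb (-2.48 ± 0.12 in KO and -2.53 ± 0.12 in WT), Rragd (-0.88 ± 0.20 in KO and -1.02 ± 0.19 in WT) and Lamtor4 (-2.41 ± 0.12 in KO and -1.90 ± 0.11 in WT) fell.

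Between genotypes the differences were small. With LPS, 2 of 16 V-ATPase genes (12.5%) and 5 of 31 lysosomal genes (16.1%) were called in KO against WT, where 10.8% of all genes were called (5.3% higher, 5.5% lower). The subunits Atp6v0d1 and Atp6v1b2 and the membrane protein Scarb2 were higher, and the hydrolases Asah1, Ppt1, Man2b1 and Ctsa were lower. All 4 calls among the 21 hydrolases and activators were lower. Under total-count scaling the 3 higher calls were lost, the 4 lower ones remained, and Atp6v1a, Gusb and Glb1 were added as lower, where 9.94% of all genes were called lower and 2.97% higher.

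Atp6v0d1 had 181, 157, 162, 168 and 166 CPM in KO LPS, against 148, 164, 136, 130.4 and 141 CPM in WT LPS. Atp6v1b2 had 358, 352, 345, 345 and 335 CPM in KO LPS, against 306, 354, 285, 295 and 305 CPM in WT LPS. For both, WT LPS replicate 2 reached into the KO range while the other WT libraries lay below every KO library. On the log2 scale the change was 0.21 ± 0.06 for Atp6v0d1 (adjusted p = 0.023) and 0.17 ± 0.05 for Atp6v1b2 (adjusted p = 0.032). Scarb2 had 304, 314, 303, 304 and 304 CPM in KO LPS, against 276, 297, 277, 279.5 and 278 CPM in WT LPS. It was the only member whose groups did not overlap, where 6.51% of all genes did not, and its log2 fold change was 0.12 ± 0.04 (adjusted p = 0.032).

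Asah1 had 80.3, 106, 89.6, 85.0 and 84.8 CPM in KO LPS, against 109, 118, 112, 111 and 101 CPM in WT LPS. KO replicate 2 alone reached into the WT range. Its log2 fold change was -0.30 ± 0.06 (adjusted p = 0.0028), and this call passed in all 27 alternative settings, with an adjusted p of at most 0.034. Ppt1 had 161, 212, 192, 182 and 189.6 CPM in KO LPS, against 247, 193, 223, 239 and 213 CPM in WT LPS. The log2 fold change was -0.25 ± 0.07 (adjusted p = 0.023). Man2b1 had 409.7, 511, 417, 405 and 431 CPM in KO LPS, against 563, 431, 531, 524 and 499.5 CPM in WT LPS. Ctsa had 63.3, 88.9, 63.0, 62.9 and 69.9 CPM in KO LPS, against 83.9, 99.2, 72.5, 78.9 and 90.9 CPM in WT LPS. For Ppt1 and Man2b1 the overlap came from the replicate 2 libraries, KO high and WT low, and for Ctsa from KO replicate 2 alone with WT replicates 1, 3 and 4 below it. The log2 fold changes were -0.23 ± 0.07 for Man2b1 (adjusted p = 0.046) and -0.29 ± 0.09 for Ctsa (adjusted p = 0.045). Of 27 alternatives, the call was lost in 5 for Ppt1, 7 for Atp6v0d1, 9 for Atp6v1b2, 11 for Scarb2, 17 for Ctsa and 19 for Man2b1. Single libraries decided several of them. The Ppt1 call was lost without any one of KO LPS 1 and 4 and WT LPS 1 and 4 (edgeR adjusted p 0.059 to 0.073), and the Atp6v0d1 call without any one of KO LPS 1 and 4 and WT LPS 3, 4 and 5 (0.052 to 0.078). The Atp6v1b2 call was lost without any one of KO LPS 1, 2 and 4 and WT LPS 1, 3, 4 and 5 (0.053 to 0.089), and the Scarb2 call without any one of KO LPS 1, 2, 4 and 5 and WT LPS 1, 3, 4 and 5 (0.061 to 0.073). The Ctsa and Man2b1 calls were each lost without any one of 15 of the 18 libraries, at an adjusted p of up to 0.12 for Ctsa and 0.13 for Man2b1.

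**Figure D4:**
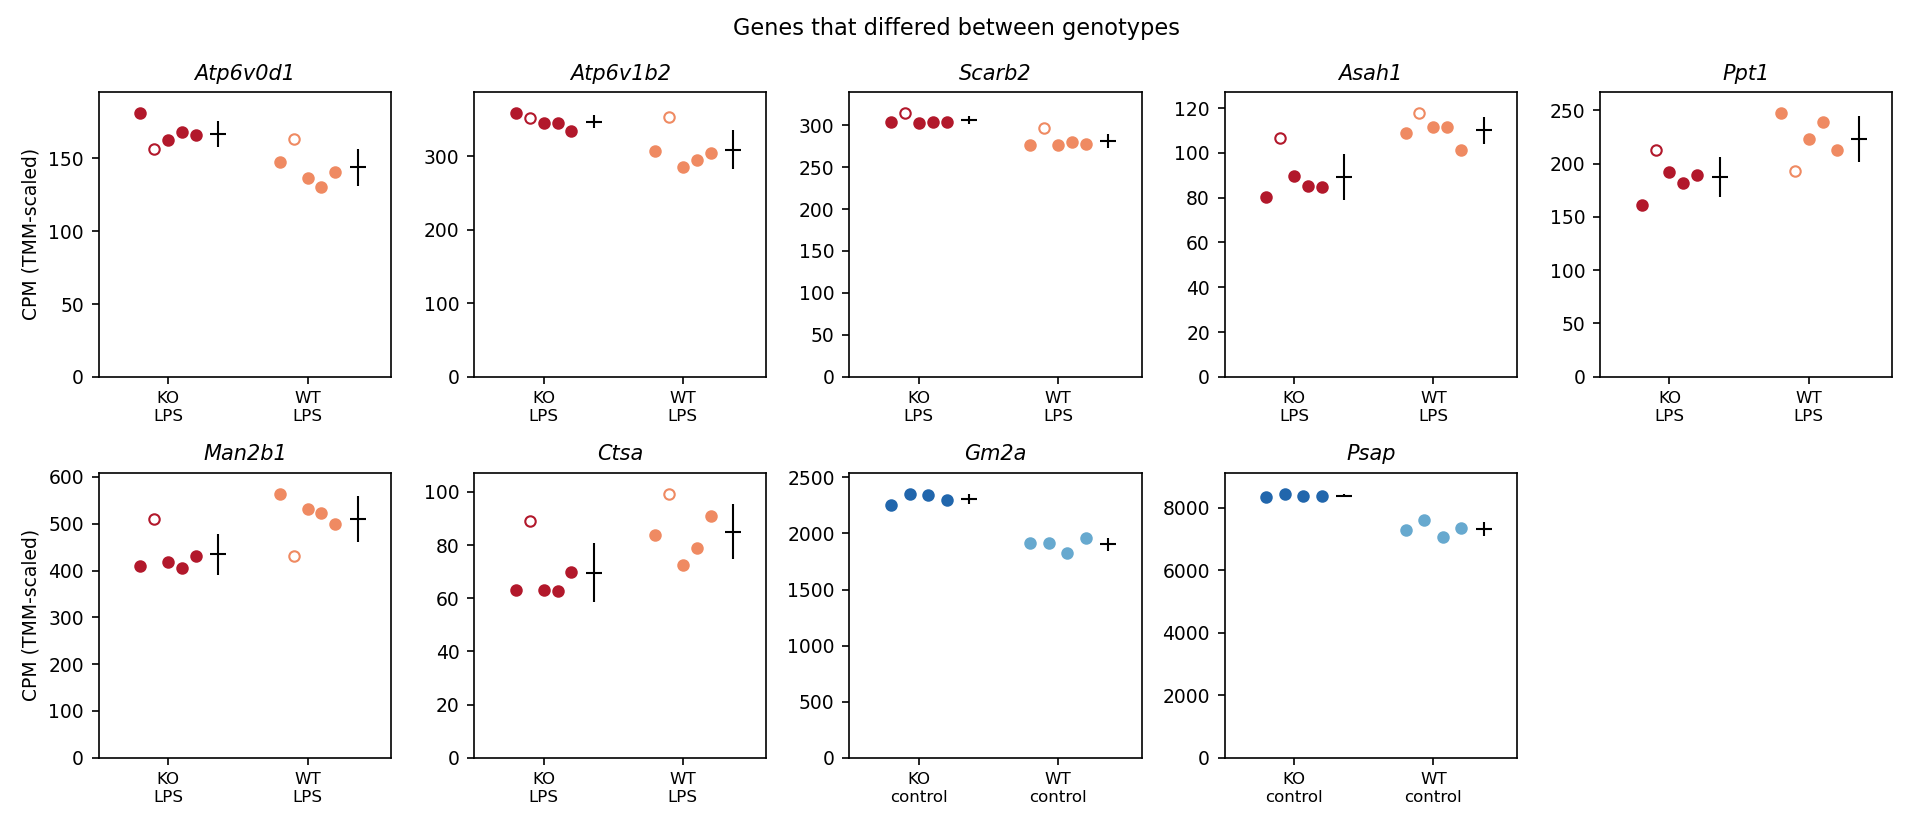
TMM-scaled CPM (y axes, from 0) of the members called between genotypes, in each library (points), with KO left of WT and the mean ± SD in black. The first 7 panels compare LPS groups (n = 5 each), where open circles are the replicate 2 libraries, and the last 2 panels compare control groups (n = 4 each). The WT open circle lies within the KO range for Atp6v0d1 and Atp6v1b2, the KO open circle lies within the WT range for Asah1, Ppt1, Man2b1 and Ctsa, and the control groups of Gm2a and Psap do not overlap.

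Without both replicate 2 libraries, whose macrophage marker sums were 1498 CPM in KO LPS and 1854 CPM in WT LPS while the others lay at 935 to 1110 CPM in KO and 957 to 1281 CPM in WT, more members were called. V-ATPase calls were then 4 of 16 (25%), all higher, and lysosomal calls 13 of 31 (41.9%), with 4 higher and 9 lower. Of all 11950 genes tested in that fit, 27.1% were called (14.7% higher, 12.4% lower), so the share of calls rose among all genes as well. All 7 calls above remained. Leaving out WT LPS 2 alone gave 3344 calls among all genes, against 1294 with every library. Atp6v1d (0.22) and Atp6v0c (0.22) joined the higher V-ATPase genes on the log2 scale. Tpp1 (0.25), Laptm4a (0.19) and Tfeb (0.30) joined the higher lysosomal genes. The lower ones gained were Ctsl (-0.38), Gusb (-0.36), Ctsd (-0.35), Naglu (-0.26) and Glb1 (-0.20). With every library, 1 of the 13 cDC1 markers was called higher in KO LPS than in WT LPS (Cadm1). Another 5 were called lower (Xcr1, Batf3, Naaa, Itgae and Flt3), where 10.8% of all genes were called. Xcr1, on which the cells were purified, had a log2 fold change of -0.61 ± 0.06 with LPS. In control it was at -0.68 ± 0.07 and was the 1 cDC1 marker called. Whether cell make-up has a part in the differences of the members between genotypes was not tested.

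Among the other lists in KO against WT with LPS, 8 of 40 hydrolases and cofactors (20%), 7 of 26 membrane proteins (26.9%), 4 of 16 sorting genes (25%), 2 of 22 factors and nutrient sensing genes (9.09%) and 1 of 12 assembly factors (8.33%) were called, where 10.8% of all genes were. Naaa, an acid amidase of lipid breakdown that also served as a cDC1 marker, averaged 514 ± 74.5 CPM in KO LPS, against 986 ± 71.8 CPM in WT LPS (SD, log2 fold change -0.94 ± 0.08, adjusted p = 1.2e-07). Ifi30, the thiol reductase GILT that opens disulfide bonds of antigens, averaged 57.0 ± 4.10 CPM in KO LPS, against 103 ± 21.8 CPM in WT LPS (-0.85 ± 0.10, adjusted p = 1.6e-05). Neither gene's groups overlapped. Galns (-0.28 ± 0.09) and Prcp (-0.18 ± 0.06) were among the other hydrolases called lower, and those called higher were Dpp7 (0.31 ± 0.08) and Ids (0.29 ± 0.05). Higher membrane proteins were Slc29a3 (0.47 ± 0.11), Slc15a3 (0.47 ± 0.10), Mfsd12 (0.26 ± 0.04), Cln3 (0.23 ± 0.05) and Clcn7 (0.20 ± 0.05), and lower ones Slc38a9 (-0.44 ± 0.06) and Cd164 (-0.24 ± 0.05). Ncoa7 averaged 609 ± 61.1 CPM in KO LPS, against 429 ± 61.4 CPM in WT LPS (0.51 ± 0.09). In sorting, Gga3 (0.39 ± 0.05) and Sorl1 (0.30 ± 0.07) were higher and Gnptab (-0.25 ± 0.06) and Ap1s1 (-0.20 ± 0.05) lower. The paralogues Fnip1 (0.20 ± 0.06) and Fnip2 (-0.32 ± 0.06), partners of folliculin, were called in opposite directions.

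In control cells no V-ATPase gene was called between genotypes, 4 of 16 being under an unadjusted p of 0.05 in edgeR and 1 called in DESeq2. Of the lysosomal genes 2 of 31 (6.45%), both higher, were called, where 2.41% of all genes were called (1.89% higher, 0.525% lower). Both act in sphingolipid breakdown. Gm2a had 2254, 2351, 2342 and 2294 CPM in KO control, against 1912, 1912, 1822 and 1961 CPM in WT control. Psap had 8334, 8439, 8364 and 8392 CPM in KO control, against 7286, 7600, 7055 and 7351 CPM in WT control. The groups did not overlap for either gene, which held for 6 of 31 lysosomal and 4 of 16 V-ATPase genes, against 14.7% of all genes. By edgeR the log2 fold change was 0.28 ± 0.06 for Gm2a (adjusted p = 0.0091) and 0.19 ± 0.05 for Psap (adjusted p = 0.031). Under total-count scaling, where 1.71% of all genes were called, neither passed, at an adjusted p of 0.1 for Gm2a and 0.23 for Psap. Without WT control replicate 3 the Gm2a call was also lost, at an adjusted p of 0.056, and the Psap call was lost in 11 of 27 alternatives, among them leaving out any one of the 4 KO controls or WT controls 1, 3 and 4 (adjusted p 0.06 to 0.14). Without both replicate 2 LPS libraries, where 6.88% of all genes were called, the calls of Gm2a and Psap remained, Cd68 joined as higher (0.26) and Atp6v1a as lower (-0.21). Of the other lists, Fnip2 alone was called, with 67.3 ± 2.50 CPM in KO control, against 90.9 ± 6.39 CPM in WT control (SD, log2 fold change -0.43 ± 0.06, adjusted p = 0.00065).

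The factors Tfeb, Tfe3 and the channel gene Mcoln1 were not called between genotypes in edgeR's test with all libraries and no block. With LPS their log2 fold changes in KO against WT were 0.26 ± 0.11 for Tfeb (adjusted p = 0.12), 0.03 ± 0.05 for Tfe3 (0.8) and 0.14 ± 0.07 for Mcoln1 (0.2). Tfeb was called higher in DESeq2's test (0.29, adjusted p = 0.044) and in edgeR with a block for the run of library numbers (0.26, adjusted p = 0.028). It was also called without both replicate 2 libraries (0.30, adjusted p = 0.018), without KO LPS 2 (0.34, adjusted p = 0.025) or without WT LPS 3 (0.35, adjusted p = 0.045). In control they were 0.10 ± 0.10, -0.04 ± 0.06 and -0.08 ± 0.07.

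A difference between genotypes in the LPS response itself was tested as an interaction, which 3.82% of all genes passed (1.03% higher, 2.79% lower in KO). Ppt1 was the member that passed: the log2 difference of its LPS responses, KO minus WT, was -0.40 ± 0.10 (adjusted p = 0.035), from -1.75 ± 0.07 in KO and -1.36 ± 0.07 in WT. Over 26 alternatives its adjusted p ranged between 0.0018 and 0.076, and the call was lost in 15, among them leaving out any one of KO LPS 1, 4 and 5, WT LPS 1, 3 and 4, KO control 2, 3 and 4 and WT control 2, 3 and 4 (0.054 to 0.076). Under total-count scaling, which 4.28% of all genes passed, its adjusted p was 0.054. No V-ATPase gene passed (2 of 16 under an unadjusted p of 0.05 in edgeR), the nearest being Atp6v1g2 at -0.81 ± 0.23 (adjusted p = 0.052). Without the replicate 2 libraries 4 V-ATPase and 4 lysosomal genes passed, where 13.3% of all genes did. Among the other lists Naaa (-1.09 ± 0.12), Ifi30 (-0.91 ± 0.15) and Ap1s1 (-0.30 ± 0.08) had a lower response in KO, and Gga3 (0.47 ± 0.08), Fnip1 (0.36 ± 0.08), Mfsd12 (0.33 ± 0.06) and Clcn7 (0.26 ± 0.07) a higher one.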

How the data were processed

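RNA of 18 mouse BMDC samples was sequenced. The deposited table holds estimated counts, FPKM and TPM per gene and sample, computed by the authors. HISAT and Bowtie2 are named with the build GRCm39, without versions, in the submitters' processing notes, and the read length is 150 bases, per the labels. No source used here names the counting step or its annotation. The estimated counts, as deposited, are not all whole (6.37% differ from a whole number by over 0.001) and were rounded. The FPKM values as deposited were not used. TPM values as deposited were used only for levels between genes and for paralogue shares.

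Counts were tested with edgeR 4.0.16 in R 4.3.3 (glmQLFit and glmQLFTest, TMM scaling, 1 mean per group, all 18 libraries). Genes passed filterByExpr with a minimum count of 10 and a minimum total of 15, which left 11989 of 16614, and p-values were adjusted by the Benjamini-Hochberg method over all of them. SE is the log2 fold change divided by the square root of its F statistic. The biological coefficient of variation was 0.0934. Alternatives used DESeq2 1.42.0 and limma 3.58.1 (voom). The fit was also run on simulated data in which few genes changed, and in a single group only. Most genes here were called with LPS, so that run does not bear on the choice of scaling. No pair of libraries held identical values, and chi-square per degree of freedom was 2.70 to 73.7 over 32 replicate pairs, so none was counted as a repeat.

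The members and lists were chosen with earlier results of these data known. Named genes are, per comparison and set, up to 5 highest and 5 lowest of those called, and all called members between genotypes; Tfeb, Tfe3 and Mcoln1 are always given. Of the listed genes, those not in the table were not analysed here, and some others are not reported here. Library names carry numbers in runs of 4 consecutive ones, in which LPS replicates 1 to 5 stand in runs 1 to 5 and control replicates 1 to 4 in runs 1, 3, 4 and 5. Samples of 1 run deviated together for LPS against control in WT (r of 0.14 to 0.273 over 4 pairs), so the numbers were taken to pair them there. In that comparison a block for the run gave 16 V-ATPase and 25 lysosomal calls, against 15 and 22 without it. Fold changes and calls in the text come from fits without a block unless a block is named. Members called only with the block are not all named. A gene said not to pass did not pass without the block. Promoter windows come from RefSeq GRCm38.p6, another build than the deposited one, and were matched by gene ID for 9641 of the tested genes. Coordinates are given for those windows only.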

Additional observations from a re-analysis of the deposited data

Results flagged for a closer look

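In 35 of 204 combinations of a group with a member's CPM, a set's mean or a paralogue share, the highest or lowest library stood apart from the others by Dixon's criterion at the 95% level; chance gives about 1 in 20. Of these, 33 were among 188 CPM values, 2 among 8 set means and 0 among 8 shares. They gathered in few libraries: 12 in WT LPS 2, 10 in KO control 4 and 6 in KO LPS 2. No explanation was tested.

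In KO LPS, replicate 2 stood apart with 88.9 CPM for Ctsa, 1127 for Ctsb, 17.1 for Glb1, 511 for Man2b1, 14.2 for Naglu and 314 for Scarb2, all the highest of the group. Replicate 3 stood apart for Neu1, with 13.2 CPM. In WT LPS, replicate 2 stood apart with 34.3 CPM for Atp6v0d2, 73.4 for Atp6v1c1, 461 for Atp6v1d, 77.6 for Atp6v1e1, 186.5 for Cd68 and 1207 for Ctsb. The same library had 425 CPM for Ctsc, 268 for Ctsl, 424 for Lamp1, 556 for Lamp2, 285 for Laptm4a and 297 for Scarb2. Replicate 3 of WT LPS stood apart with 13.8 CPM for Naglu and 7269 CPM for Psap.

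In KO control, replicate 4 stood apart with 107.9 CPM for Atp6v0b, 143.6 for Atp6v0c, 29.8 for Atp6v0d2, 42.7 for Atp6v1e1 and 646 for Ctsb. It had 459.6 CPM for Ctsd, 118 for Ctsl, 89.0 for Lamp2 and 35.1 for Tfeb, and a mean log2 CPM of 7.21 over the lysosomal genes. In WT control, replicate 4 stood apart for Ctsc (89.1 CPM), replicate 2 for Laptm4a (110.1 CPM) and Neu1 (13.9 CPM), and replicate 3 for the lysosomal mean log2 CPM (7.09).

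The LPS response of Ppt1 differed between genotypes by the test of that difference, with a log2 difference, KO minus WT, of -0.40.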

How the results depend on the processing

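After LPS, the counts of called members and of all genes stayed within 1.5 times under every alternative. What the scaling moved was direction. Under total-count scaling these KO log2 fold changes turned negative: Atp6v0a2 -0.036, Atp6v0b -0.36, Atp6v1c1 -0.18, Atp6v1e1 -0.0079, Atp6v1f -0.24, Atp6v1h -0.13, Ctsb -0.24, Ctsl -0.081, Tpp1 -0.32, Hexa -0.54, Gla -0.28, Lipa -0.53, Grn -0.28 and Mcoln1 -0.65. In WT they were Atp6v0b -0.27, Atp6v0e -0.56, Atp6v1c1 -0.25, Atp6v1f -0.15, Atp6v1h -0.15, Ctsb -0.11, Tpp1 -0.40, Gla -0.10 and Grn -0.18. This follows from the shift of the median of all genes given above. No lower call turned positive, which a downward shift does not allow.

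Counts between genotypes moved more, and the cause was not tested. Where a count of members stands below without that of all genes, it is not read as a result about the members. With LPS, where 1294 genes, 2 V-ATPase and 5 lysosomal genes were called, total-count scaling gave 1548 genes, 1 V-ATPase and 6 lysosomal calls. DESeq2's size factors gave 3 lysosomal calls. DESeq2's test gave 8 lysosomal calls and no filter on low counts gave 3. A fit of the LPS groups alone gave 619, 0 and 1, and the fit without both replicate 2 libraries 3238, 4 and 13. In control, where 289, 0 and 2 were called, total-count scaling gave 1 V-ATPase and 0 lysosomal calls, DESeq2's size factors and no filter each 1 lysosomal call. DESeq2's test gave 494 genes and 1 V-ATPase call, a fit of the control groups alone 895 and 2, and the fit without the replicate 2 libraries 822 and 1. For the interaction (458, 0 and 1), total-count scaling gave 0 lysosomal calls and limma-voom 2. DESeq2's test gave 813 genes and 3 lysosomal calls, and the fit without the replicate 2 libraries 1591, 4 and 4.

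The numbers of the titles did not pair the samples: the correlation of same-numbered deviations was over 0.1 for 1 of 4 pairs for LPS in KO, 2 of 4 in WT, 2 of 5 between genotypes with LPS and 1 of 4 in control. By run of library numbers it was over 0.1 for 2 of 4 pairs in KO and all 4 in WT. A block by title number gave 1 lysosomal call in control and 0 for the interaction. A block by run gave 614 genes and 1 V-ATPase call in control. With LPS it gave 4 V-ATPase calls (2 higher, 2 lower) and 11 lysosomal calls (4 higher, 7 lower) between genotypes. The count of all genes in that fit is not given here, so these counts are not read as a result about the members. For the interaction the run block gave 882 genes, 1 V-ATPase and 5 lysosomal calls. After LPS no block moved a count by over 1.5 times.

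Leaving out 1 library at a time gave 114 to 751 genes, 0 to 1 V-ATPase and 0 to 2 lysosomal calls in control. With LPS it gave 805 to 3344 genes, 0 to 4 V-ATPase and 1 to 10 lysosomal calls between genotypes, and for the interaction 208 to 1501, 0 to 2 and 0 to 3. The lowest counts of all genes came without WT control 3 (control and interaction) or KO LPS 1, and the highest without WT LPS 2. For LPS against control the ranges were 10185 to 10488, 14 to 15 and 26 to 27 in KO, and 10074 to 10315, 14 to 16 and 22 to 24 in WT. Depth limits Atp6v1g2 and the 5 untested V-ATPase genes most, whose low counts allow no finer statement.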
